A study of Mus musculus with 17 samples.

Results

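The glucocorticoid receptor gene *Nr3c1* and 9 genes known as its targets were followed in U9-KO and WT mice. The tissue was perigonadal white adipose tissue (pWAT), a visceral fat depot. They were taken by Ensembl identifier as a list of 10 genes among the 55401 in the files, and all 10 passed the filter on low values in both sexes. U9-KO mice are homozygous for a deletion of all exons of *U90926*, a long non-coding RNA gene, in every cell of the body, on the C57BL/6J strain, and WT mice were littermates from crosses of heterozygotes. Both genotypes were fed standard chow, and no treatment was compared between groups. The cohort went through the phenotyping screens of the study, which included food withdrawal, a glucose tolerance test and repeated blood sampling. Mice were 16 weeks old by the methods and 19 weeks old by the schedule of the study. Whole tissue of each mouse gave 1 RNA-seq library, and there were 10 females (5 WT and 5 U9-KO) and 7 males (3 WT and 4 U9-KO).

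Corticosterone, the main glucocorticoid of mice, enters cells and binds the glucocorticoid receptor, which sits in the cytoplasm with the chaperone Hsp90 and its partners. The bound receptor moves to the nucleus, attaches to DNA at glucocorticoid response elements and raises or lowers transcription of nearby genes. In adipose tissue glucocorticoids are known to act on adipocyte differentiation, on lipid storage and release and on inflammation, and their level in blood follows a daily rhythm. No hormone level was part of these data.

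Values are normalized counts, which are read counts per gene after division by the library's size factor. The reads behind them were estimated at 19.7 to 27.61 × 10⁶ per library. *U90926* had 1 normalized count in each of 2 WT mice (female 3, male 2) and 0 in every other library, so its level could not check the genotype labels at this depth. Adipocyte markers were high in every library, with 27618 to 72328 normalized counts of the adipokine gene *Adipoq*, but the female libraries also held transcripts of the ovary. The summed normalized count of 16 ovary markers ranged from 4670 to 127982 in WT females and from 5471 to 141966 in U9-KO females, against 273 to 528 in males. U9-KO female 1 and WT female 4 stood apart at the top of that range, with all other females at 38482 or below. Female genotype differences that these 2 mice turned in direction or moved by over 1.5 times are also given without them. Epididymis markers summed to at most 7 in males.

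Between the genotypes, no gene of the list passed an adjusted p under 0.05 in either sex. In males, every U9-KO value of *Zbtb16*, *Sgk1* and *Klf9* lay below every WT value, which held for 3.8% of all genes tested. These 3, *Tsc22d3* and *Cdkn1a* had an unadjusted p under 0.05, as did 7.6% of all genes, and *Cdkn1a* was the only one of the 5 that was higher in U9-KO. In females all 10 genes overlapped between the genotypes, and 0.238% of all genes did not. Among females *Fkbp5* and *Sgk1* followed the ovary transcripts in the library.

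**Figure D1:**
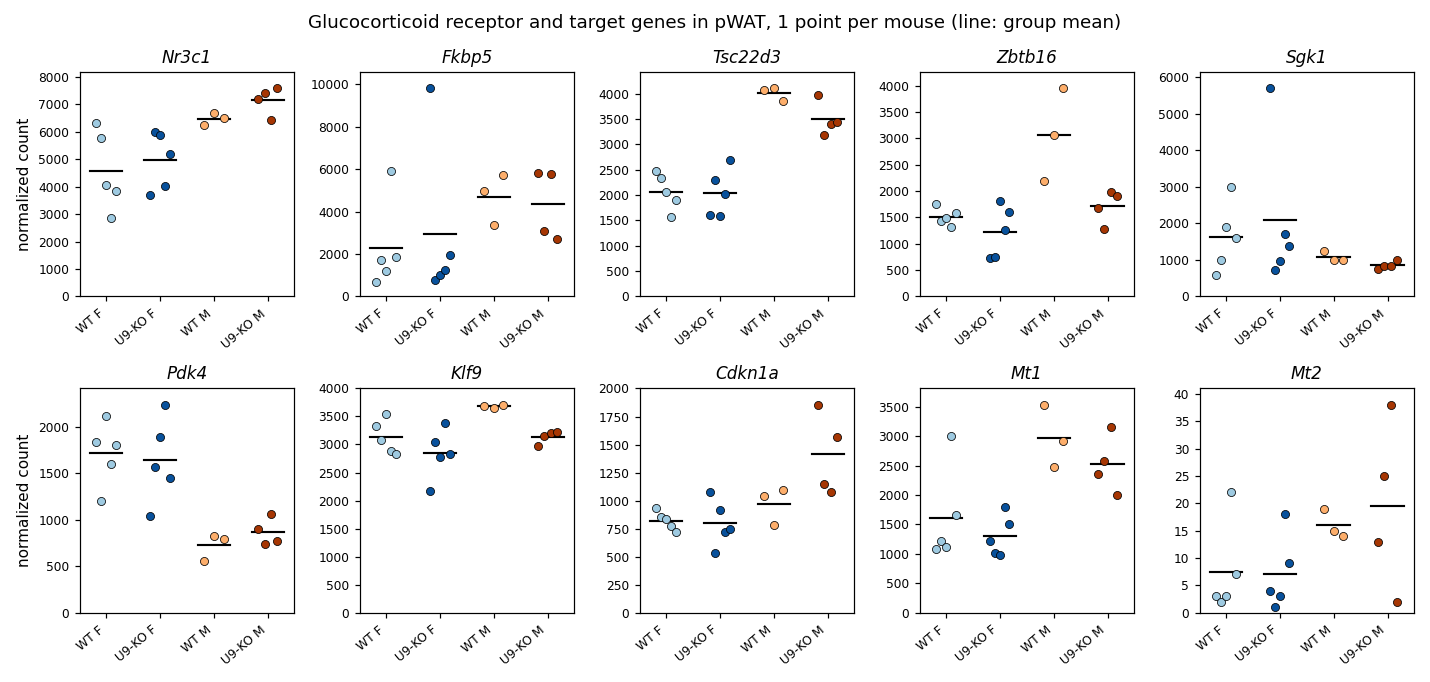
Normalized counts of the 10 genes in each mouse (vertical axes, each from 0), by group: WT and U9-KO females (F) and males (M), with a line at the group mean. In females *Fkbp5* reached 5922 and 9803 in single mice against 655 to 1973 in the others, and in males the U9-KO points of *Zbtb16*, *Sgk1* and *Klf9* lie below all WT points.

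*Nr3c1* (ENSMUSG00000024431) encodes the receptor itself. In WT females it had 6338, 5777, 4052, 2854 and 3838 normalized counts in mice 1 to 5, and in U9-KO females 3695, 5998, 5884, 4031 and 5175. In WT males it had 6264, 6694 and 6500, and in U9-KO males 7184, 7433, 6417 and 7582. The lowest values were in WT female 4 and U9-KO female 1, and 3 of the 4 U9-KO males were above all WT males. The log2 fold change of U9-KO against WT was 0.15 ± 0.22 (SE) in females (adjusted p = 1) and 0.14 ± 0.082 in males (adjusted p = 0.701, limma), and the genotypes overlapped in both sexes. Without the 2 ovary-rich mice the female value was 0.093. As the tissue is a mixture of cells, fewer cells of a type and less RNA per cell cannot be told apart here or in any result that follows.

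*Fkbp5* (ENSMUSG00000024222, chromosome 17, 28399094 to 28517527 on GRCm38) encodes a co-chaperone that lowers the receptor's affinity for hormone, and it is itself induced by the receptor. In females it varied most among the abundant genes of the list. WT females had 655, 1703, 1208, 5922 and 1863 normalized counts and U9-KO females 9803, 772, 993, 1249 and 1973, so that the highest female value was 14.97 times the lowest. WT males had 4962, 3384 and 5738 and U9-KO males 5813, 3095, 5760 and 2716, a span of 2.14 times. The 2 high females were the ovary-rich ones, and the other 8 females were all below every male. U9-KO against WT gave a log2 fold change of 0.063 ± 0.70 in females (exact permutation p = 0.905) and -0.16 ± 0.29 in males (exact permutation p = 0.743), and without the 2 ovary-rich mice it was -0.10 in females. With the ovary markers as a covariate it was 0.50 in females (unadjusted p = 0.00424, adjusted p = 0.995, limma), so direction and size depended on how the ovary transcripts were treated. The deposited values may have been scaled in each sex separately, so levels were not tested between the sexes.

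*Tsc22d3* (ENSMUSG00000031431, chromosome X, 140539528 to 140600659) encodes the glucocorticoid-induced leucine zipper protein, a mediator of anti-inflammatory actions of the hormone. WT males had 4083, 4104 and 3866 normalized counts and U9-KO males 3966, 3187, 3395 and 3449. U9-KO male 1 lay within the WT values and the other 3 below them. The log2 fold change in males was -0.20 ± 0.086 (unadjusted p = 0.0391, adjusted p = 0.631, limma). In females it was -0.028 ± 0.17 (-0.045 without the 2 ovary-rich mice), with a range of 1564 to 2482 in WT and 1593 to 2701 in U9-KO. Every male was above every female.

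*Zbtb16* (ENSMUSG00000066687, chromosome 9, 48654297 to 48836222) encodes the zinc finger transcription factor PLZF, whose gene is strongly induced by glucocorticoids in many cell types. It had the largest difference between male groups on the list. WT males had 2189, 3065 and 3950 normalized counts, a mean of 3068 ± 881 (SD, n = 3). U9-KO males had 1686, 1274, 1982 and 1905, a mean of 1712 ± 318 (SD, n = 4). The groups did not overlap. In males the log2 fold change was -0.82 ± 0.20 (unadjusted p = 0.00206, adjusted p = 0.612, limma), and the exact permutation p was 0.057, the smallest that 3 against 4 mice allow. Leaving out each male in turn gave log2 fold changes from -1.04 to -0.62. Without WT male 1 the adjusted p was 0.0449, in a fit that called 71 genes in all. WT male 1 had the WT value nearest to the U9-KO males, so leaving it out necessarily widens the difference and leaves fewer WT males. In females WT mice had 1750, 1436, 1484, 1321 and 1583 and U9-KO mice 726, 748, 1820, 1265 and 1596. U9-KO females 1 and 2 were low while U9-KO female 3 was above all WT females, and the log2 fold change was -0.39 ± 0.24 (unadjusted p = 0.134, adjusted p = 1).

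*Sgk1* (ENSMUSG00000019970, chromosome 10, 21882184 to 21999903) encodes a kinase known for the control of ion channels and transporters and is a rapid target of the receptor. WT males had 1238, 1003 and 998 normalized counts and U9-KO males 743, 837, 828 and 993. The groups did not overlap, but U9-KO male 4 came close to the lowest WT male. In males the log2 fold change was -0.35 ± 0.12 (unadjusted p = 0.0136, adjusted p = 0.612, limma; exact permutation p = 0.057). WT females had 580, 984, 1909, 2983 and 1605 and U9-KO females 5688, 714, 963, 1720 and 1390, a span of 9.81 times with the 2 ovary-rich mice highest. In females the value was 0.17 ± 0.55, without those mice -0.022 and with the ovary markers as a covariate 0.47 (unadjusted p = 0.121, adjusted p = 0.995, limma).

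A glucocorticoid response element was looked for around the transcript starts of these genes, as the letters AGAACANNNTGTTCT on either strand, in windows of 300 bases from RefSeq on GRCm38.p6. Windows were given for 8 of the 10 genes, 16 in all, while *Nr3c1* and *Zbtb16* were not matched. Of 32851 windows 3 held the element (0.00913%), and 1 of these was a window of *Sgk1*, where it lay 189 to 175 bases before the start. That start is 1 of 6 that the table gives for *Sgk1* and lies inside the annotated gene, far from its outermost start. The half-site AGAACA, which the full element contains, was in 19% of all windows and in 4 of the 16. The *Sgk1* window is shown for this match, with the element in capitals, beside that of *Klf9*, the other gene with a window whose male groups did not overlap and which held no match. The 250 bases before that internal start of *Sgk1* are chr10:21993640-21993889, and those before the start of *Klf9* are chr19:23140976-23141225, both on the plus strand.
Sgk1: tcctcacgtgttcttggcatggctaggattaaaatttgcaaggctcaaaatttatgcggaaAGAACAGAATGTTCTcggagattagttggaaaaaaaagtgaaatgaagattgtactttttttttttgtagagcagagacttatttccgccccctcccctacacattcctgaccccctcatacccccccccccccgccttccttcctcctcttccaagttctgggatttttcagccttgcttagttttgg
Klf9: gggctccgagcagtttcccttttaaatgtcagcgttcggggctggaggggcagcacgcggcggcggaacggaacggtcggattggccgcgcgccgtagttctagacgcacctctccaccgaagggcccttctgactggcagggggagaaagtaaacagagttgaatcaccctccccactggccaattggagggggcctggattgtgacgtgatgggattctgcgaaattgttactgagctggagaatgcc
A match is a description of the letters, and no binding of the receptor was measured.

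*Klf9* (ENSMUSG00000033863, chromosome 19, 23141226 to 23168134) encodes a zinc finger transcription factor that responds to glucocorticoids and varies over the day. In females it was the most even gene of the list. WT males had 3684, 3656 and 3709 normalized counts and U9-KO males 2980, 3147, 3201 and 3219, which gives means of 3683 ± 26.5 (SD, n = 3) and 3137 ± 109 (SD, n = 4). The groups did not overlap, and the gap between them was larger than the spread within either, with a log2 fold change of -0.23 ± 0.066 (unadjusted p = 0.0058, adjusted p = 0.612, limma; exact permutation p = 0.057). In females it was -0.15 ± 0.12, with 2827 to 3536 in WT and 2170 to 3389 in U9-KO, and the lowest mouse was U9-KO female 1. Without the 2 ovary-rich mice the value in females was -0.084.

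*Cdkn1a* (ENSMUSG00000023067, chromosome 17, 29090976 to 29100727) encodes p21, which halts the cell cycle and is a target of p53 as well as of the receptor. WT males had 1038, 779 and 1098 normalized counts and U9-KO males 1855, 1151, 1073 and 1571. U9-KO males 1 and 4 were well above the WT males and U9-KO male 3 was among them. For males the log2 fold change was 0.52 ± 0.19 (unadjusted p = 0.022, adjusted p = 0.614, limma). It was -0.075 ± 0.17 in females and -0.21 without the 2 ovary-rich mice. The difference between the sexes, 0.59, had an unadjusted p of 0.0458 (adjusted p = 1, limma). Of its exon bases 7.68% are shared with an antisense gene model that had 1 to 12 counts. None of 12 other p53 targets reached an unadjusted p under 0.05 in males or females, with a median log2 fold change of -0.024 and 0.043, respectively. Among all genes tested 7.6% reached it in males and 2.23% in females.

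*Pdk4* (ENSMUSG00000019577, chromosome 6, 5483351 to 5496309) encodes a kinase that shuts down pyruvate dehydrogenase in fasting. It had 560, 827 and 787 normalized counts in WT males and 901, 734, 1061 and 771 in U9-KO males, and 1035 to 2237 in females. WT male 1 was the lowest mouse of all, and every female except U9-KO female 1 was above every male. A log2 fold change of 0.26 ± 0.16 was found in males (adjusted p = 0.709, limma) and of -0.088 ± 0.20 in females (adjusted p = 1), where it was 0.048 without the 2 ovary-rich mice. Of 12 other genes of fasting and fatty acid oxidation, *Ucp3*, a mitochondrial carrier, had an unadjusted p under 0.05 in males (log2 fold change 0.48, adjusted p = 0.612), and none did in females. Over all genes tested the shares were 7.6% in males and 2.23% in females.

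*Mt1* and *Mt2* encode metallothioneins, small proteins that bind zinc and copper and are induced by glucocorticoids and by metals. *Mt1* (ENSMUSG00000031765, chromosome 8, 94179082 to 94180327) had 3537, 2480 and 2913 normalized counts in WT males and 2352, 2573, 3158 and 2004 in U9-KO males. In females it had 1084, 1220, 1108, 3000 and 1668 in WT and 1217, 1013, 987, 1791 and 1514 in U9-KO. WT female 4 stood above all other females, and the genotypes overlapped in both sexes. The log2 fold change was -0.24 ± 0.16 in males and -0.23 ± 0.28 in females, where it was 0.037 without the 2 ovary-rich mice. *Mt2* (ENSMUSG00000031762, chromosome 8, 94172664 to 94173568) had only 1 to 38 normalized counts. Of its 588 exon bases 432 (73.5%) lie within exons of *Gm45774* on the other strand, which had 0 to 10, and reads that fall on 2 genes were not counted by the authors' counting mode. The strand setting is not given in the sources used here, so the level of *Mt2* could not be read from these values. Of 8 genes of zinc handling, *Mt3*, a metallothionein known from brain, had a log2 fold change of -1.70 in males from counts of 0 to 7.

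Levels could be compared between genes only per length. Normalized counts per kb of exon were highest for *Mt1* in WT females (mean 1297) and WT males (mean 2389). In WT females it was followed by *Klf9* at 651, *Nr3c1* at 595, *Pdk4* at 488 and *Tsc22d3* at 476, whose ranges overlapped from each to the next. In WT males *Tsc22d3* at 926 was above *Nr3c1* at 844 with no overlap of the 3 mice, and *Nr3c1* was likewise above *Klf9* at 765. *Zbtb16*, at 581, and *Fkbp5*, at 496, overlapped. *Cdkn1a*, *Sgk1* and *Pdk4* had means from 206 to 274 per kb in WT males.

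**Figure D2:**
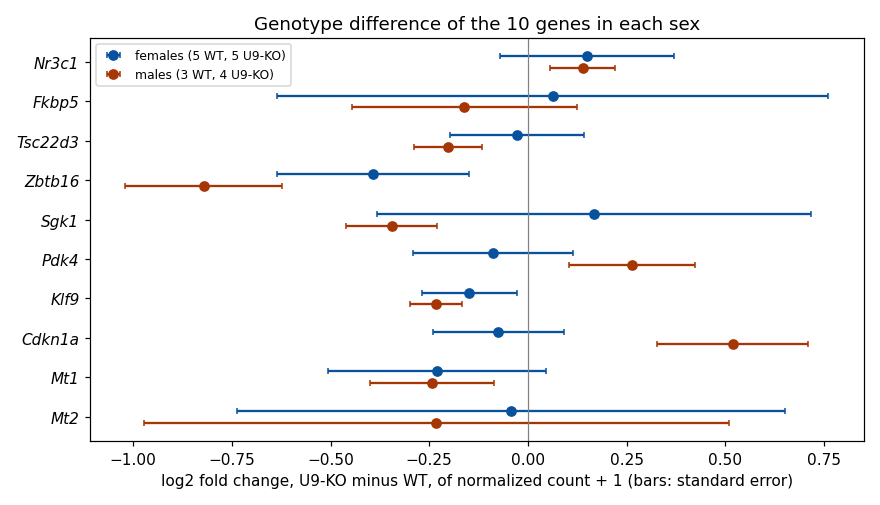
Log2 fold change of U9-KO against WT for each of the 10 genes (horizontal axis, normalized count + 1), in females and males, with bars for 1 standard error. The male values range from -0.82 for *Zbtb16* to 0.52 for *Cdkn1a*, and *Fkbp5*, *Sgk1* and *Mt2* have the widest bars in females.

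Over the whole list, 5 of 10 genes had an unadjusted p under 0.05 in males, where 7.6% of the 21930 genes tested did. Of these 1 was higher and 4 were lower in U9-KO, against 3.51% and 4.09% of all genes. In 3 of 10 the groups did not overlap with U9-KO lower, against 3.8% of all genes. The 10 genes, and the gene lists that follow, were chosen with earlier results of these data known. The genes were also measured in the same 7 males and are not separate observations. The shares are therefore a description and no test of the lists. The median log2 fold change of the 10 was -0.22 in males and -0.059 in females, with 7 of 10 below 0 in each, while over all genes tested it was 0.001 and 0. In females 0 of 10 had an unadjusted p under 0.05, against 2.23% of 24825 genes, and in 0 of 10 the groups did not overlap, against 0.238%. With the ovary markers as a covariate 2 of 10 had an unadjusted p under 0.05 in females, against 2.88% of all genes. These were *Fkbp5* (log2 fold change 0.50) and *Klf9* (-0.20, unadjusted p = 0.0459), each with an adjusted p of 0.995 by limma. The study's own DESeq2 test reported genes at an adjusted p under 0.05 in each sex. By limma 0 genes of the transcriptome had an adjusted p under 0.05 in males and 0 in females, with 1667 and 553 below 0.05 before adjustment. When the sexes were fitted together with sex as a covariate, *Zbtb16* (log2 fold change -0.57, unadjusted p = 0.00531) and *Klf9* (-0.18, unadjusted p = 0.024) were below that threshold, where 4.02% of all genes were, and both had an adjusted p of 0.938. Without the 2 ovary-rich mice these values were -0.53 and -0.15. The genotype difference of *Zbtb16*, *Sgk1* or *Klf9* was not shown to differ between the sexes, and *Cdkn1a* was the only one of the 10 with an unadjusted p under 0.05 for that difference, where 3.46% of all genes had one.

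Genes that act on the receptor were followed next. The list held 16 genes for chaperones, coregulators, steroid enzymes and the related mineralocorticoid receptor. In males 3 of the 16 had an unadjusted p under 0.05, as did 7.6% of all genes. All 3 were higher in U9-KO, where 3.51% of all genes were under 0.05 and higher. None had an adjusted p under 0.05. The 3 were chaperone genes of the Hsp90 machinery that keeps the receptor able to bind hormone. *Hsp90aa1* had a log2 fold change of 0.24, *Stip1* of 0.25 and *Ptges3*, the p23 gene, of 0.22. The most abundant members, *Hsp90ab1*, *Hspa8* and *H6pd*, had no unadjusted p under 0.05 in either sex. Nor did any of the 16 in females, where 2.23% of all genes did.

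Of 30 other genes known to respond to glucocorticoids, 7 had an unadjusted p under 0.05 in males, as did 7.6% of all genes. Of the 7, 1 was higher and 6 were lower in U9-KO, against 3.51% and 4.09% of all genes. In females none of the 30 had one, against 2.23% of all genes. The adjusted p was at least 0.612 for each of the 7 in males. *Ddit4*, an inhibitor of mTORC1 also induced by stress, had 727, 1421 and 1533 normalized counts in WT males and 953, 759, 668 and 464 in U9-KO males (log2 fold change -0.76). WT male 1 lay among the U9-KO males. The transcription factor *Cebpd* (-0.41), the feedback inhibitor of growth factor receptors *Errfi1* (-0.46), the phagocytic receptor *Mertk* (-0.40), *Foxo3* (-0.27) and the NF-kappaB inhibitor *Nfkbia* (-0.31) were the others below WT, and the phosphatidate phosphatase *Lpin1* (0.33) was above. *Pnpla2* and *Lipe*, which encode the lipases of fat release, and *Glul*, glutamine synthetase, were the most abundant of the list and had no unadjusted p under 0.05. The median log2 fold change of the 30 was -0.13 in males and -0.058 in females, while over all genes tested it was 0.001 and 0.

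**Figure D3:**
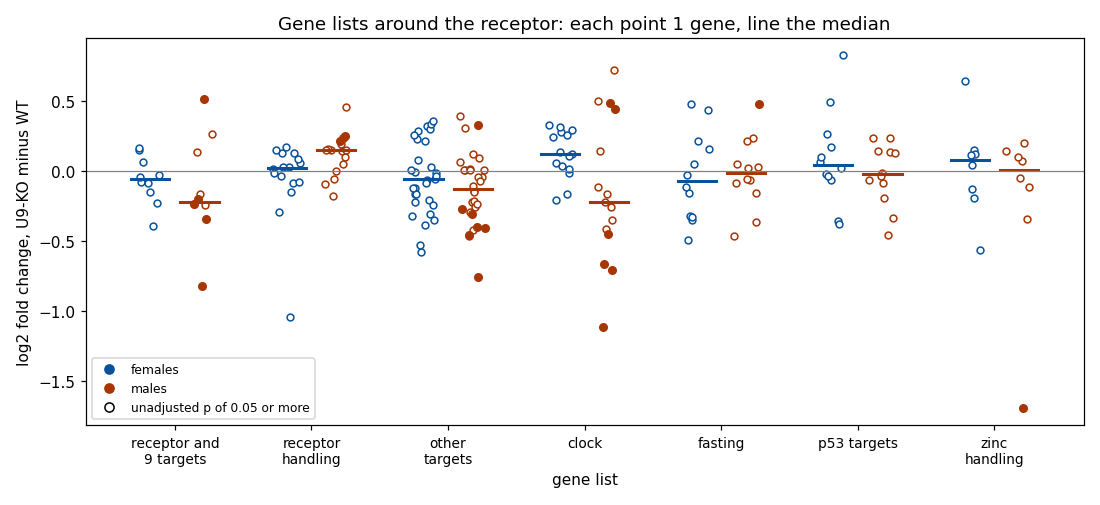
Log2 fold change of U9-KO against WT (vertical axis) for each gene of 7 lists, in females and males, with a line at the median and filled points for an unadjusted p under 0.05. In females no point is filled, and in males filled points lie mostly below 0 among the targets and above 0 among the genes of receptor handling. Of all genes tested 7.6% had such a p in males and 2.23% in females.

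Of 15 clock genes measured in the same males, 6 had an unadjusted p under 0.05, 2 higher and 4 lower in U9-KO, and none an adjusted one, where 7.6% of all genes had an unadjusted p under 0.05. *Dbp*, a clock-controlled transcription factor whose level swings widely over the day, had 317, 482 and 305 normalized counts in WT males and 157, 165, 211 and 136 in U9-KO males. The groups did not overlap (log2 fold change -1.12, unadjusted p = 0.000162, adjusted p = 0.612). *Dbp*, *Nr1d2* (-0.71), *Per3* (-0.67) and *Tef* (-0.45) were lower in U9-KO at an unadjusted p under 0.05. *Arntl* (0.45) and *Cry1* (0.49), whose peaks lie at other times of day, were higher. Across the 7 males *Dbp* had a Pearson r of 0.865 with *Klf9* (exact permutation p = 0.0244, adjusted p = 0.19 over 70 relations; Spearman rho 0.643, p = 0.139) and of -0.856 with *Cdkn1a* (p = 0.00972, adjusted p = 0.0936; rho -0.929, p = 0.00675). Without the 2 mice farthest in *Dbp* the r values were 0.976 and -0.666. With values centred on each genotype they were -0.028 and -0.785, so the relation with *Klf9* was not present within the genotypes. In the 10 females *Dbp* had r of -0.586 with *Klf9* (permutation p = 0.0626, adjusted p = 0.263) and -0.271 with *Cdkn1a* (p = 0.469, adjusted p = 0.656). None of the 15 clock genes had an unadjusted p under 0.05 in females, where 2.23% of all genes did. There 12 of the 15 had a log2 fold change above 0. The hour of collection of each mouse was not analysed here, and the part of the clock in the male results was not tested.

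Markers of macrophages and B cells were set beside the male groups, with 7.6% of all genes at an unadjusted p under 0.05 for comparison and no marker at an adjusted one. The summed count of 8 macrophage markers was 24640 to 40889 in WT males and 18586 to 24253 in U9-KO males, with 4 of 8 lower in U9-KO at an unadjusted p under 0.05 (*Csf1r*, *Lyz2*, *C1qa* and *Itgam*) and none at 0. The sum of 5 B cell markers was 343 to 829 in WT and 247 to 270 in U9-KO males, with 5 of 5 lower at that threshold and none at 0. In the 7 males the macrophage sum had a Pearson r of 0.685 with *Klf9* (exact permutation p = 0.0708, rho 0.714, p = 0.0881) and of 0.618 with *Zbtb16* (p = 0.137, rho 0.643, p = 0.139), with adjusted p of 0.263 and 0.373. For *Sgk1* r was 0.429 (exact permutation p = 0.338, adjusted p = 0.537) and rho 0.821 (p = 0.0341). Centred on each genotype the r values for *Klf9*, *Zbtb16* and *Sgk1* were -0.122, 0.056 and -0.293. Adipocyte markers overlapped between the male groups, with 0 of 11 at an unadjusted p under 0.05. The part of these cells in the male differences was not tested.

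Co-variation among mice was examined over the 45 pairs of the 10 genes in each sex, with p adjusted over 90 pairs. In females 3 pairs passed an adjusted p under 0.05 and 9 an unadjusted one. In males no pair passed, with a smallest adjusted p of 0.136, and 4 had an unadjusted p under 0.05. The pairs were as often negative as positive, with 22 of 45 above 0 in females and 23 in males, so the 10 genes did not move as one group. Each of the 3 female pairs lost the adjusted threshold when some single mouse was left out. Over those fits r ranged from 0.888 to 0.921 for *Mt1* with *Mt2*, from 0.824 to 0.95 for *Fkbp5* with *Sgk1* and from -0.948 to -0.821 for *Nr3c1* with *Sgk1*. Without the 2 ovary-rich mice no pair in females passed and 3 had an unadjusted p under 0.05.

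**Figure D4:**
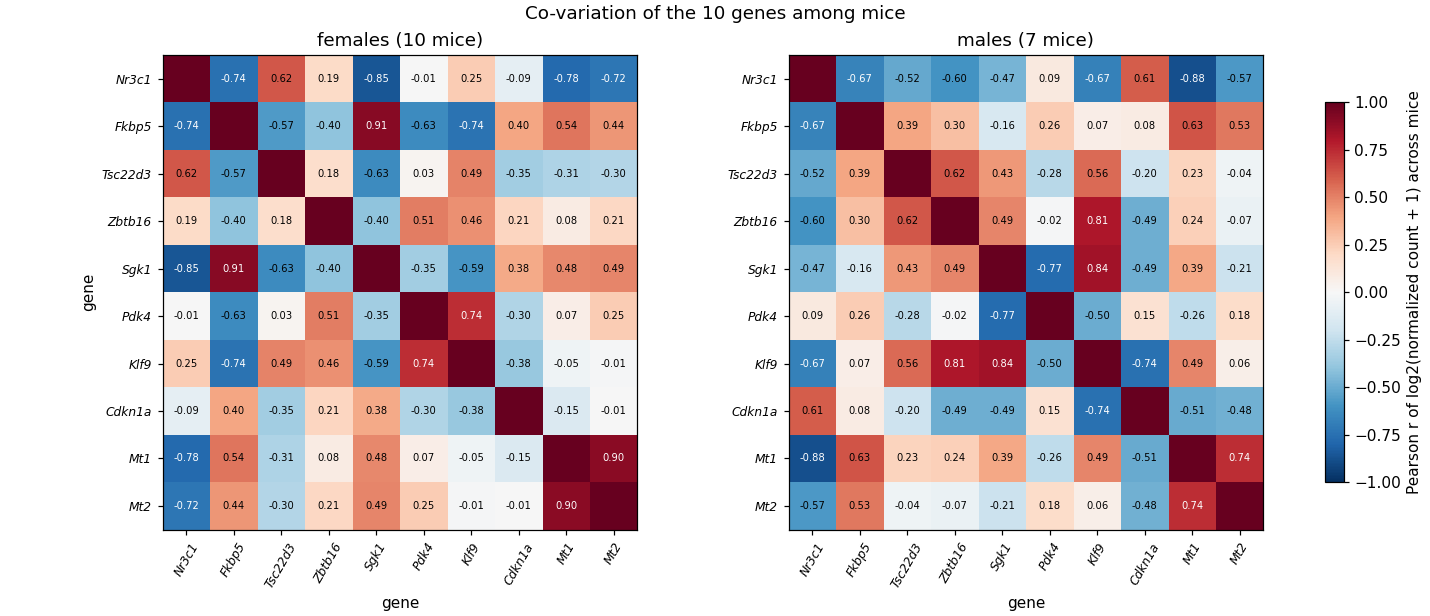
Pearson r of log2(normalized count + 1) across mice for each pair of the 10 genes (both axes), in 10 females and 7 males, with the color scale from -1 to 1. In females *Fkbp5* with *Sgk1* and *Mt1* with *Mt2* are at 0.90 or above, and *Nr3c1* has negative values with *Fkbp5* and *Mt1* in both sexes.

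*Mt1* and *Mt2*, neighbours on chromosome 8, had r = 0.902 in females (permutation p = 0.00012, adjusted p = 0.0108; rho 0.816, p = 0.00642). Without the 2 mice farthest in *Mt1* r was 0.82, and without the ovary-rich mice 0.888. In males r was 0.742 (exact permutation p = 0.0524, adjusted p = 0.297; rho 0.75, p = 0.0663), 0.652 without the 2 farthest mice and 0.441 without U9-KO male 4, which had 2 counts of *Mt2*. Among females the low counts of *Mt2* thus still ranked the mice much as *Mt1* did, while in males the relation was not shown.

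*Fkbp5* and *Sgk1* had r = 0.910 in females (permutation p = 0.00035, adjusted p = 0.0157; rho 0.794, p = 0.00883). The 2 mice farthest in *Fkbp5* were the ovary-rich ones, and without them r was 0.699 (permutation p = 0.0612). In males the value was -0.161 (exact permutation p = 0.724, adjusted p = 0.881; rho -0.429, p = 0.354) and -0.40 without the 2 farthest mice. With the other 8 genes *Fkbp5* had r from -0.745 (*Nr3c1*) to 0.537 (*Mt1*) in females and from -0.666 (*Nr3c1*) to 0.626 (*Mt1*) in males, none with an adjusted p under 0.05. *Tsc22d3* and *Zbtb16*, genes induced by the same hormone, had r of -0.569 and -0.404 with *Fkbp5* in females and 0.393 and 0.299 in males. Without the ovary-rich mice the female values were 0.050 and 0.267.

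*Nr3c1* and *Sgk1* had r = -0.854 in females (permutation p = 0.00133, adjusted p = 0.0399; rho -0.939, p = 0.00019). It was -0.829 without the 2 mice farthest in *Nr3c1* and -0.918 without the ovary-rich ones, where the adjusted p was 0.156. In males the r was -0.467 and was 0.092 within the genotypes. *Nr3c1* and *Mt1* had r = -0.779 in females (permutation p = 0.00523, adjusted p = 0.118; rho -0.758, p = 0.0146) and -0.882 in males (exact permutation p = 0.00893, adjusted p = 0.136; rho -0.893, p = 0.0123). The male value was -0.92 without the 2 farthest mice and -0.867 within the genotypes. The female value was -0.546 without the 2 farthest mice (permutation p = 0.151), -0.701 without the ovary-rich ones (permutation p = 0.0539) and -0.587 without WT female 4.

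In males *Sgk1* with *Klf9* had r = 0.840 (exact permutation p = 0.0113, adjusted p = 0.145; rho 0.857, p = 0.0238), *Zbtb16* with *Klf9* 0.811 (p = 0.0204, adjusted p = 0.167; rho 0.893, p = 0.0123) and *Sgk1* with *Pdk4* -0.770 (p = 0.0474, adjusted p = 0.297; rho -0.607, p = 0.167). Without the 2 farthest mice they were 0.732, 0.831 and -0.425. Within the genotypes they were 0.618, 0.215 and -0.692, and the largest drop was in *Zbtb16* with *Klf9*. In females the same pairs had r of -0.586, 0.456 and -0.349, and without the 2 ovary-rich mice all 3 signs turned, to 0.115, -0.143 and 0.38.

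The ovary transcripts in the female libraries were set against the members. *Fkbp5* had r = 0.964 with the summed ovary markers (permutation p = 3e-05, adjusted p = 0.0021 over 70 relations; rho 0.952, p = 0.00013), and 0.942 over the 8 females without the 2 ovary-rich mice. *Sgk1* had r = 0.843 (p = 0.00169, adjusted p = 0.0291; rho 0.806, p = 0.00746) and 0.58 without them, and *Nr3c1* had -0.760 (p = 0.0107, adjusted p = 0.0936; rho -0.867, p = 0.00202) and -0.499. Males, with ovary sums of at most 528, had 2716 to 5813 counts of *Fkbp5*, below the 5922 and 9803 of the 2 ovary-rich females. The part of the ovary transcripts in the female values was not tested.

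**Figure D5:**
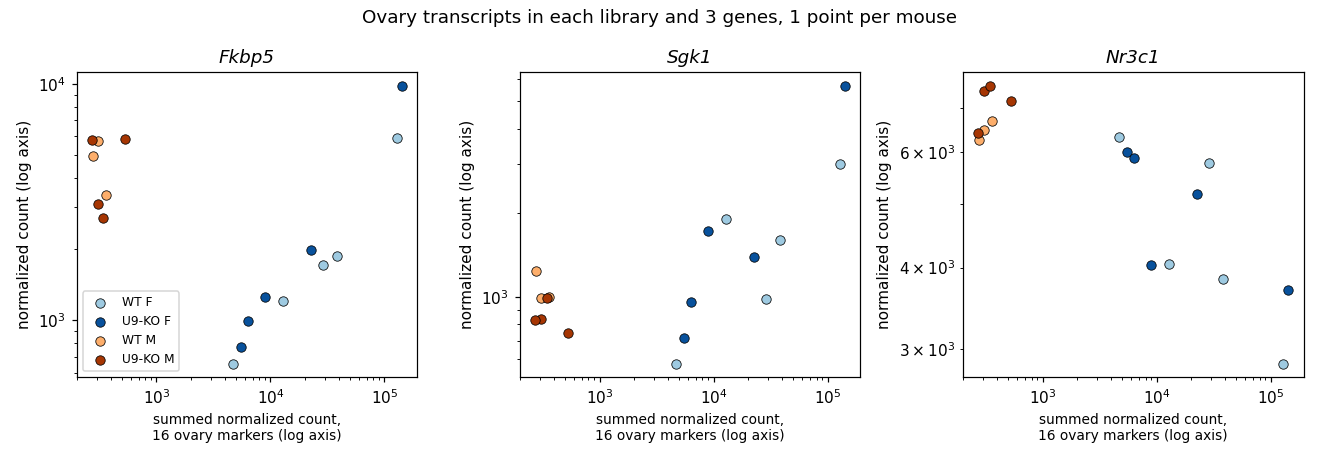
Normalized counts of *Fkbp5*, *Sgk1* and *Nr3c1* (vertical log axes) against the summed normalized count of 16 ovary markers (horizontal log axis), 1 point per mouse. Among females *Fkbp5* climbs with the ovary sum from 655 to 9803, and the males lie at the left, with ovary sums of 273 to 528 and 2716 to 5813 counts of *Fkbp5*.

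The sum of 11 adipocyte markers ran the other way in the same females, with 459785 in U9-KO female 1 and 497877 in WT female 4 against 733904 to 1127595 in the others. Its Pearson r was 0.806 with *Nr3c1* (permutation p = 0.00208, adjusted p = 0.0291; rho 0.879, p = 0.00167), -0.902 with *Fkbp5* (p = 0.0017, adjusted p = 0.0291; rho -0.782, p = 0.0107) and -0.889 with *Sgk1* (p = 0.00067, adjusted p = 0.0234; rho -0.939, p = 0.00021). Without the 2 farthest mice these were 0.656, -0.526 and -0.655. *Tsc22d3* followed the macrophage markers in females, with r = 0.830 (p = 0.00275, adjusted p = 0.0321; rho 0.782, p = 0.0105) and 0.694 without the 2 farthest mice. These shares of cell types and the levels per cell cannot be told apart.

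Over all 17 mice, with values centred on each group, the genes whose pattern was most like a member were ranked among 13749 genes by Pearson r, as a description. For *Nr3c1* they were *Cdkl2* (0.963), *Tshr* (0.955), the receptor for thyrotropin, and *Aoc3* (0.952), an amine oxidase of adipocytes. For *Fkbp5* they were *Pgbd5* (0.943), *Fads6* (0.942) and *Mboat2* (0.939), and *Sgk1* came 168th (0.845). Without the 2 ovary-rich mice *Pgbd5* stayed first (0.89). For *Zbtb16* the first was *Cyb5rl* (0.941), also without those mice (0.928), followed by ENSMUSG00000118456 (0.832) and *Irak2* (0.827). Also without them, *Rragc* (0.95) and *Eif4e3* (0.945) came before *Cdkl2* (0.937) for *Nr3c1*. For *Tsc22d3* over all mice they were *Prkar2a* (0.863), *Rab11fip3* (0.849) and *Hoxb5* (0.846), and for *Mt1* *Arsb* (0.905), *Aldh1a2* (0.881) and *Gm8186* (0.88), and none of these 6 was among the 3 most like its member without the ovary-rich mice. The mice share libraries and scaling across genes, and in the 7 males alone none of these 15 genes was among the 3 most like its member.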

How the data were processed

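Total RNA of whole pWAT from 17 mice was made into directional, poly(A)-selected libraries. Per the methods and the submitters' processing notes, the authors trimmed reads with trim_galore, aligned them with STAR 2.7.3a to GRCm38, counted them per gene in Union mode and normalized with DESeq2 1.28.1. The annotation release is not given in the sources used here. The deposited values, treated as a score, are read counts that the authors scaled by library size factors and rounded. Size factors (0.757 to 1.23) were estimated here from whole numbers that the rounding skips or doubles. The series table repeats the single libraries and was not used. Labels were used where 2 male columns carry other replicate numbers.

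GENCODE M21 named 55141 of 55401 identifiers. Values were tested as log2(normalized count + 1) with limma 3.58.1 (eBayes with trend, R 4.3.3) on genes with a total of at least 10, adjusted by Benjamini-Hochberg. Females and males were fitted alone, then together with sex as covariate, and the difference between sexes was tested. Single genes were compared by two-sided exact permutation tests over mice, and correlations by permutation tests (scipy 1.17.1, 100000 resamples in females, exact in males). The fits were also run on simulated counts with known fold changes and the same relative spread for all genes, to check the estimated fold changes. The spread that ovary transcripts add between females was not simulated. Replicates are separate mice. The members and gene lists were chosen with earlier results of these data known. Named genes were the 10 members, genes of the other lists with an unadjusted p under 0.05 in a sex or among the 3 most abundant, the 3 most like each of 5 members, and *U90926*; other names were chosen after their values were seen. Of the marker lists for plasma cells, T cells, endothelium, mesothelium, stromal progenitors, muscle and red blood cells, results stand in the closing section.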

Additional observations from a re-analysis of the deposited data

Results flagged for a closer look

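In 4 of 30 groups of 4 or 5 mice, 1 mouse lay far from the others by Dixon's criterion on normalized counts. These were not on the log2 scale of the other tests. Chance would give about 1.5 of 30 only for independent groups with a normal spread. The genes share the same mice, so no excess over chance is read from this count. U9-KO female 1 had 9803 normalized counts of *Fkbp5* while the 4 others of its group had 772 to 1973, and 5688 of *Sgk1* against 714 to 1720. WT female 4 had 5922 of *Fkbp5* against 655 to 1863 in the other WT females, and 22 of *Mt2* against 2 to 7. These are the 2 females with the highest sums of ovary markers, 141966 and 127982, and the part of the ovary transcripts in these values was not tested.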

How the results depend on the processing

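With 3 to 5 mice per group and reads without molecular identifiers, small differences lie within the spread between mice, and the exact tests cannot go below 0.057 in males. In most fits no gene passed in any comparison. It was 1 gene without the trend in females, in males and in both sexes, 1 gene in both sexes with a pseudocount of 0.5, with no filter and with no sex covariate, and 1 gene for the difference between sexes with no filter. None of these fits called *Zbtb16*, *Klf9* or *Cdkn1a*, and in females and males none called any member. Counts over leaving out each mouse were 0 to 71 in males, with 71 without WT male 1, and 0 in the other comparisons. The numbers of genes at an unadjusted p under 0.05 without trend were 695 in females and 1500 in males, and with at least 10 in every mouse 194 and 1333.

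*Zbtb16* without WT male 1 was the only member called in any setting within a sex. In females, directions reversed without the 2 ovary-rich mice for *Fkbp5* (-0.10), *Sgk1* (-0.022), *Pdk4* (0.048), *Mt1* (0.037) and *Mt2* (0.50), and with ovary markers as covariate for *Mt2* (0.14); the cause was not tested. That covariate also moved *Nr3c1* to 0.048, *Tsc22d3* to -0.080, *Pdk4* to -0.17 and *Mt1* to -0.13. Leaving out each mouse in females gave log2 fold changes from -0.006 to 0.28 for *Nr3c1*, -0.55 to 0.51 for *Fkbp5*, -0.14 to 0.054 for *Tsc22d3*, -0.30 to 0.45 for *Sgk1*, -0.21 to 0.066 for *Pdk4*, -0.19 to 0.061 for *Cdkn1a*, -0.35 to 0.022 for *Mt1* and -0.46 to 0.43 for *Mt2*. In males it gave -0.38 to 0.035 for *Fkbp5* and -0.71 to 0.52 for *Mt2*.

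Same-numbered mice did not deviate together in expression (females: correlations from -0.44 to 0.24, males: -0.044 to 0.094). Paired mice need not deviate alike, so this could not show whether the numbers pair the mice. With the replicate number as a block no gene passed, and in males, where the block drops U9-KO male 4, *Fkbp5* was at 0.035 and *Mt2* at 0.52.

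Of the pairs in females, 1 passed with Spearman rho, 1 without the 2 farthest mice and 0 without the ovary-rich mice. Leaving out each mouse gave 0 to 2 in females and 0 to 1 in males, where *Nr3c1* with *Mt1* passed without U9-KO male 2 (-0.957). *Nr3c1* with *Sgk1* was lost without any one female except U9-KO female 1 or WT female 4, *Fkbp5* with *Sgk1* without U9-KO female 1 or 2 or WT female 1 or 4, and *Mt1* with *Mt2* without U9-KO female 2 or 4 or WT female 4, with fewer mice in each fit. *Fkbp5* in females reversed with *Tsc22d3* (0.050), *Zbtb16* (0.267) and *Cdkn1a* (-9.35e-05) without the ovary-rich mice, which were also the 2 farthest, and with *Mt1* (-0.203) after regression on ovary markers. In males *Fkbp5* with *Klf9* was -0.179 by Spearman rho and -0.381 within genotypes. Without the 2 farthest males *Fkbp5* had r of 0.032 with *Nr3c1*, -0.534 with *Tsc22d3*, -0.336 with *Zbtb16* and -0.495 with *Klf9*. Leaving out each mouse, *Fkbp5* had r from -0.814 to 0.084 with *Zbtb16* in females, and in males from -0.445 to 0.114 with *Sgk1*, -0.147 to 0.414 with *Klf9*, -0.305 to 0.493 with *Cdkn1a* and -0.058 to 0.758 with *Mt2*. The fits without the ovary-rich mice and on residuals were chosen after seeing the data.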

Other observations

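*Hsd11b1* and *Abcb1b*, genes of steroid and drug handling, chosen after their values were seen, varied widely between mice. *Hsd11b1*, whose enzyme regenerates active glucocorticoid inside cells, had 264 to 758 normalized counts in females and 2536 to 4138 in males. *Abcb1b*, an efflux transporter of the P-glycoprotein family, had 15363 in WT female 4 against 659 to 3909 in all other mice. WT female 4 was 1 of the 2 ovary-rich mice. The next highest values were 3909 in WT female 5 and 3278 in U9-KO female 1, the other ovary-rich mouse. The part of the ovary transcripts in these values was not tested.

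In females the immediate early genes *Fos* and *Egr1* had log2 fold changes of 0.77 and 0.73 at an unadjusted p under 0.05. Of all genes tested 2.23% had such a p in females and 7.6% in males. In females 8 of 9 immediate early genes were above 0, as were 12407 of all 24825 genes tested. Of 5 plasma cell genes, *Jchain*, *Mzb1* and *Tnfrsf17* were higher in U9-KO females at that threshold, and *Cd8a* of 5 T cell genes was too. In males *Cd4* was lower in U9-KO at that threshold and no plasma cell gene was below it. Of the muscle genes *Acta1* was lower in U9-KO females. None had an adjusted p under 0.05. Endothelial, mesothelial, stromal progenitor and red blood cell markers had none at that threshold in either sex.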
